A study of Homo sapiens with 15 samples.

Results

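The imprinted DLK1-DIO3 domain of human chromosome 14 carries one of the largest groups of miRNA genes in the human genome. Its miRNAs were followed here through 15 small RNA libraries of HEK293 derivatives. A miRNA was taken as a member by its number, whatever its letter or arm, if the number was one of 45 that belong to the locus. This gave 85 of the 2418 mature miRNAs in the knockdown counts and 76 of the 2189 in the immunoprecipitation counts, and all 76 were also in the knockdown counts. The cells were FTO1C1, FTO2D4 and FTO3C3, separate clones derived from the Flp-In T-Rex form of the human embryonic kidney line HEK293 and used uninduced. In the knockdown, each clone was transfected with 10 nM of FTO siRNA, from a kit directed at the 3′UTR and exon 3 of the m6A demethylase FTO, or with 10 nM of scrambled siRNA, and harvested after 48 h. In the immunoprecipitation, small RNA of untreated cells of the same 3 clones was taken through 2 rounds with an antibody against N6-methyladenosine (m6A) or with an IgG isotype control, and the input was sequenced beside them. There were thus 5 groups of 3 libraries, 1 per clone. The level of FTO itself was not analysed here, since only miRNAs were counted.

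In this domain the protein-coding genes DLK1, RTL1 and DIO3 are expressed from the paternal chromosome, and the non-coding RNAs MEG3 and MEG8 and the miRNAs from the maternal one. The miRNAs are best known from embryo, placenta and brain, where several of them, such as miR-134, act in dendrites of neurons. Each hairpin can give a mature miRNA from its 5′ arm (5p) and from its 3′ arm (3p), and the seed, bases 2 to 8 of the mature strand, pairs with the target mRNA. m6A is written on adenosines by a methyltransferase complex around METTL3, and FTO can remove it.

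By RefSeq (GRCh38.p14), 84 of the 85 names were matched, and 83 of them lay on chromosome 14. They came from 51 hairpin genes, all 51 on the plus strand, between base 100852409 and base 101066786, a span of 214.4 kb. miR-770-5p lay within MEG3, a group of 5 members (miR-493, miR-337, miR-665) just after it, and 10 members (miR-431, miR-433, miR-127, miR-432, miR-136) within RTL1, to which they are antisense. Both miR-370 arms lay within MEG8. The other 65 members on chromosome 14 formed the distal group from miR-379 to miR-656. They lay within none of MEG3, RTL1 and MEG8, the only genes whose extent was compared. miR-544b lay on chromosome 3 and is therefore not of this locus, although its number put it in the list. It had 4.68 RPM (miRNA reads scaled to a library of 1000000) in the scrambled siRNA libraries and was listed in the knockdown counts alone. The mature strands on which the results below turn are shown from 5′ to 3′, with the seed in capitals. First come those that changed after the knockdown:
miR-493-5p: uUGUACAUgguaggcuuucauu
miR-127-5p: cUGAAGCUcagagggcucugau
miR-485-5p: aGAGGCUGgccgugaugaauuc
Next come the 4 that, with miR-485-5p above, had the largest log2 fold changes of m6A against IgG, and miR-431-5p, second in m6A against the input:
miR-136-5p: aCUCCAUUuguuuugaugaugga
miR-377-3p: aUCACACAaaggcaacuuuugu
miR-539-3p: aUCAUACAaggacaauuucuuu
miR-337-3p: cUCCUAUAugaugccuuucuuc
miR-431-5p: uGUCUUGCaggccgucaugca
These 2 were lower in m6A than in IgG and far above the input in both precipitates:
miR-432-5p: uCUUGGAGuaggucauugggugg
miR-495-3p: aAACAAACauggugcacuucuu
The most abundant members of the transfected cells complete the set, together with miR-1185-2-3p, a near copy of the first:
miR-1185-1-3p: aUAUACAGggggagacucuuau
miR-1185-2-3p: aUAUACAGggggagacucucau
miR-370-3p: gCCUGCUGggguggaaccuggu
miR-410-5p: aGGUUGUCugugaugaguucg
Some of them mark the extent of the locus in order of position: miR-493-5p at chr14:100869075-100869096, miR-136-5p at chr14:100884716-100884738 and miR-410-5p at chr14:101065925-101065945, all on the plus strand.

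The libraries differed in depth and in how many reads a single miRNA took. The knockdown libraries held 1991317 to 3876806 miRNA reads, the inputs 1408702 to 1500357, the m6A libraries 569501 to 4973238 and the IgG libraries 186446 to 786688. miR-10a-5p took 22.1% to 30.6% of the reads in the knockdown libraries, and miR-6080 took 15.5% to 28.4% in the inputs, 41.3% to 47.8% in m6A and 58.0% to 71.6% in IgG. The m6A and IgG libraries of FTO2D4 listed the same count of miR-6080, 563404 reads, and of 5 further miRNAs, the largest at 165 reads; no cluster result below rests on it other than through the library totals, and totals without miR-6080 are given beside the counts. The miRNAs typical of the kidney line (miR-10a-5p, miR-10b-5p, miR-196a-5p, miR-92a-3p, miR-20a-5p) summed to 147255 to 235444 RPM in the inputs but to 1010 to 2419 RPM in IgG. A count of 0 allows up to 16.1 RPM in the shallowest library, IgG of FTO3C3 (3 reads), and this limit covers counting error only.

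The cluster was a small part of the miRNA pool, and a few members made up most of it. Its members summed to 1.14% ± 0.273 (SD, n = 3) of the miRNA reads with scrambled siRNA, 1.39% ± 0.130 with FTO siRNA, 0.616% ± 0.0442 in the input, 1.80% ± 0.470 in m6A and 0.554% ± 0.0702 in IgG. With miR-6080 left out of the totals, the last 3 shares were 0.812%, 3.22% and 1.60%. The 5 most abundant members held 83.7% to 86.3% of the cluster's reads with scrambled siRNA and 56.3% to 58.0% in the input. Of the 85 members, 60 had a mean count under 50 reads in the scrambled siRNA libraries. The median member there had 8.25, 10.1 and 10.5 RPM in FTO1C1, FTO2D4 and FTO3C3. The median of all miRNAs in the same libraries was 13.2, 14.2 and 17.1 RPM. At a limit of 15 RPM in all 3 scrambled siRNA libraries, 23 members passed (27.1% of the members, 42.7% of all miRNAs). With limits of 5 and 50 RPM, 55 and 13 members passed, and the shares of all miRNAs at these limits were not counted.

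miR-1185-1-3p was the most abundant member of the transfected cells. With scrambled siRNA it had 2498 RPM in FTO1C1, 3395 in FTO2D4 and 7627 in FTO3C3, so that FTO3C3 stood above the other two. miR-370-3p (1652 ± 113 RPM, n = 3), miR-539-3p (1445 ± 317) and miR-410-5p (1325 ± 187) followed and differed by less than or about their spread. miR-485-5p came next at 763 ± 110 RPM. Then came a wide step down to miR-668-3p (188 ± 103), miR-1197 (162 ± 36.5), miR-541-3p (126 ± 23.6), miR-380-3p (107 ± 32.7) and miR-376a-2-5p (88.7 ± 13.2), neighbours within their spread. Tissue-restricted miRNAs give a scale for the low members: miR-122-5p of liver had 5.22 to 7.03 RPM, miR-124-3p of neurons 5.77 to 6.53 and miR-451a of red blood cells 7.97 to 9.54 RPM in the same libraries. miR-379-5p, at the start of the distal group, had 8.05 RPM and miR-381-3p 5.64 RPM, which lie within the range of those markers.

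**Figure D1:**
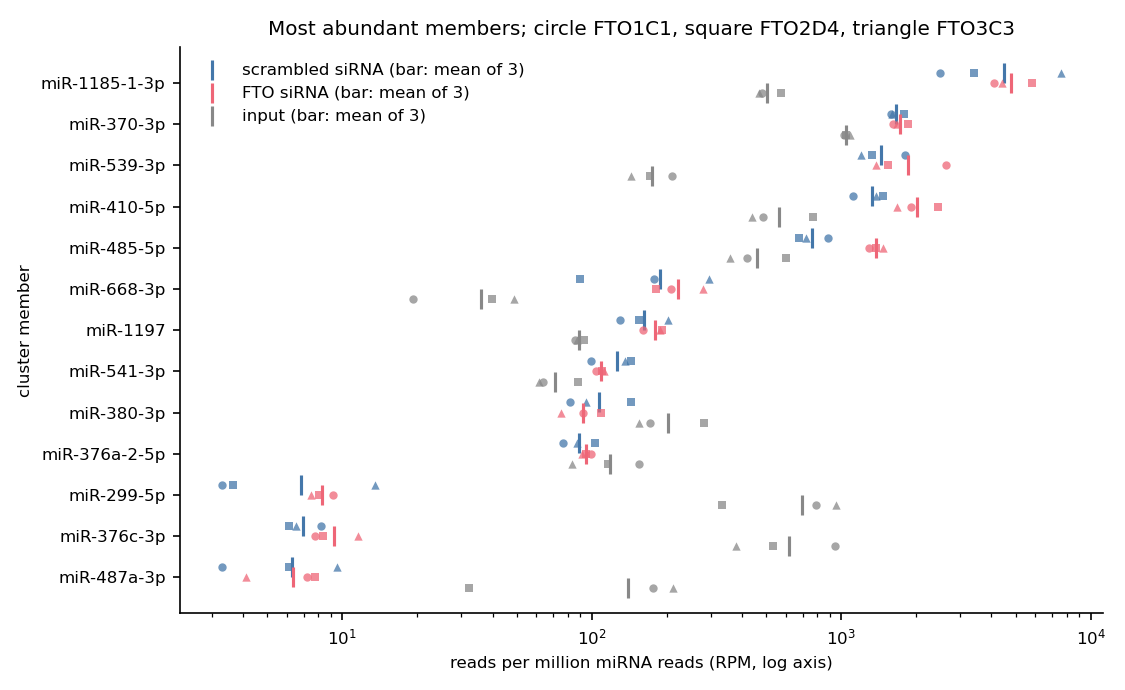
RPM (log axis) of the 10 most abundant members with scrambled siRNA and the 10 most abundant in the input, 13 in all, with 1 point per clone and a bar at the mean of 3. miR-1185-1-3p and miR-539-3p lie lower in the input than in the transfected cells, while miR-299-5p, miR-376c-3p and miR-487a-3p lie under 15 RPM in all transfected cells and above 30 RPM in all inputs.

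The 2 arms of a hairpin were often far apart. Arms were paired by name, and 33 hairpins had a 5p and a 3p arm listed under the same name. Of these 33, 7 had arms over 10-fold apart in the mean of the scrambled siRNA libraries. The 5p arm was the high one for miR-410 (1325 against 8.77 RPM for miR-410-3p), miR-485 (763 against 2.33 RPM) and miR-493 (47.1 against 4.54 RPM). The 3p arm was the high one for miR-539 (1445 against 20.4 RPM), miR-370 (1652 against 69.7 RPM), miR-337 (85.4 against 4.21 RPM) and miR-668 (188 against 14.6 RPM). In the input, 8 of 28 hairpins were over 10-fold apart, among them again miR-370, miR-410, miR-485, miR-493 and miR-539, and in m6A 4 of 28. The arm of miR-136 that was higher changed with the library: miR-136-5p had 3637 RPM and miR-136-3p 64.0 RPM in m6A, but 16.2 and 107.8 RPM in IgG. Other hairpins changed as well. miR-337-5p had 88.7 and miR-337-3p 12.9 RPM in the input, the reverse of their order with scrambled siRNA. The higher arm of miR-380, miR-411, miR-376a, miR-487a and miR-656 also differed between groups. miR-127, which is antisense to RTL1, had more of its 3p arm in every group, 43.6 against 11.3 RPM with scrambled siRNA. Arms whose names differ by a suffix were not paired and are not in these counts. Among them, miR-1185-5p had 4.34 RPM with scrambled siRNA against 4507 RPM for miR-1185-1-3p. miR-376a-2-5p had 88.7 RPM against 1.18 RPM for miR-376a-3p. miR-1185-5p and miR-376a-3p each also come from another hairpin.

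**Figure D2:**
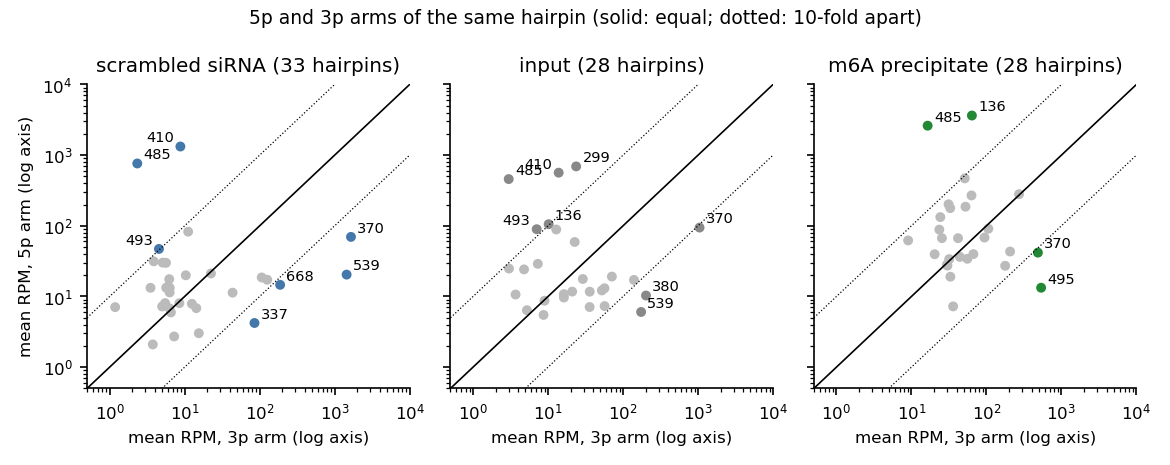
Mean RPM of the 5p arm against the 3p arm, on log axes, for hairpins with both arms listed under the same name. The panels show scrambled siRNA (33 hairpins), the input (28) and m6A (28). Coloured, numbered hairpins have arms over 10-fold apart; miR-485 lies far above the line of equal arms in all 3, and miR-370 below it.

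The untreated input did not show the same members as the transfected cells. The 2 sets of libraries were counted separately and come from different cultures, so the values are set side by side with no test. miR-299-5p had 3.30, 3.65 and 13.6 RPM with scrambled siRNA but 792, 332 and 956 RPM in the input (FTO1C1, FTO2D4, FTO3C3). miR-376c-3p had 6.09 to 8.25 RPM and 378.6 to 946 RPM. For both, every input lay above every scrambled siRNA library. In all, 6 of the 76 members had a mean over 10-fold higher in the input (7.89%, against 2.43% of all 2183 miRNAs shared by both counts), the others being miR-376a-3p, miR-487a-3p, miR-337-5p and miR-656-3p. None of the 76 was over 10-fold higher with scrambled siRNA, where 0.596% of all were. The nearest were miR-1185-1-3p, at 4507 ± 2739 against 506 ± 57.4 RPM, and miR-539-3p, at 1445 ± 317 against 174 ± 32.9 RPM. Some marker miRNAs of other cells, and the sum of those of the kidney line, also differed between the 2 sets, while other markers overlapped. The 3 blood markers miR-142-3p, miR-223-3p and miR-451a summed to 56.1 to 84.9 RPM with scrambled siRNA and to 427 to 854 RPM in the input, and most of this was miR-223-3p, a myeloid miRNA, at 44.0 to 68.8 against 406 to 822 RPM. miR-142-3p had 4.12 to 6.53 against 6.00 to 17.8 RPM and miR-451a, which marks red cells, 7.97 to 9.54 against 4.97 to 13.7 RPM, so that the groups overlapped for both. None of the 3 was at 0. miR-124-3p of neurons had 5.77 to 6.53 RPM with scrambled siRNA against 5.33 to 7.099 RPM in the input, an overlap. The muscle marker miR-206 overlapped too, at 6.53 to 12.6 against 3.999 to 14.4 RPM. The muscle marker miR-1 lay slightly lower in the input, at 9.35 to 13.6 against 7.81 to 9.33 RPM. The 5 kidney line miRNAs summed to 368979 to 467228 RPM with scrambled siRNA, above all 3 inputs (147255 to 235444 RPM). The part of either set in the levels of the cluster was not tested. Every library came from a cultured clone of HEK293, and why some of these markers differed between the sets was not tested.

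FTO knockdown left nearly all members without a called change, and the few that were called rose. By edgeR's quasi-likelihood test with the clone as a block, 3 of the 82 members that passed the filter on low counts had an adjusted p under 0.05, and all 3 were higher with FTO siRNA. This was 3.66% of the members, where 5.48% of all 2374 miRNAs tested were called. No member was called lower (0.505% of all miRNAs); DESeq2 called 1 higher and 0 lower. At an unadjusted p under 0.05, edgeR gave 21 members higher and 0 lower, where 23.9% of all miRNAs were higher and 2.23% lower. The same counts were 6 and 5 with TMM factors and 2 and 3 with DESeq2. The median log2 fold change of the members was 0.30 and that of all miRNAs was 0.29, so the members lay where the whole table lay. With TMM factors the median of all miRNAs came to 0.00 and only miR-493-5p was called. Leaving out FTO1C1 gave 0 calls among the members, with 9 higher and 1 lower at an unadjusted p under 0.05, while 6 were called higher without FTO2D4 and 8 without FTO3C3. Of all miRNAs, 0 were called without FTO1C1, 126 without FTO2D4 and 201 without FTO3C3. With the clone as a block, differences in level between clones are set aside. The p-values weigh the difference within clones against its remaining spread, and each clone gave 1 library per group.

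miR-493-5p was the member with the largest rise. Its reads in FTO1C1, FTO2D4 and FTO3C3 were 119, 120 and 119 under scrambled siRNA and 547, 719 and 671 under FTO siRNA. In RPM this was 32.7, 48.7 and 59.8 against 157, 208 and 173, and the groups did not overlap. The log2 fold change was 1.96 ± 0.20 (SE, n = 3 per group, edgeR adjusted p = 0.000874), which is 1.67 above the median of all miRNAs. It was called under all alternatives but the one without FTO1C1 (log2 1.81, edgeR adjusted p = 0.147). The other arm of its hairpin, miR-493-3p, had 2.20 to 6.90 RPM with scrambled siRNA and 6.96 to 8.91 RPM with FTO siRNA and was not called (log2 0.92 ± 0.36, edgeR adjusted p = 0.146).

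miR-485-5p, one of the 5 abundant members, had 887, 679 and 722 RPM with scrambled siRNA and 1290, 1377 and 1476 RPM with FTO siRNA. All 3 FTO siRNA libraries lay above all 3 scrambled siRNA libraries. The log2 fold change was 0.86 ± 0.16 (SE, n = 3, edgeR adjusted p = 0.0170), but it did not pass with TMM factors (edgeR adjusted p = 0.131), with DESeq2 (log2 0.57, adjusted p = 0.0518) or without FTO1C1 (log2 1.03, edgeR adjusted p = 0.147). miR-127-5p, the minor arm of a hairpin antisense to RTL1, had 11.3, 10.1 and 12.6 RPM against 19.0, 29.2 and 21.9 RPM. Its log2 fold change was 1.02 ± 0.23 (SE, n = 3, edgeR adjusted p = 0.0346), and it did not pass with TMM factors (adjusted p = 0.129), without FTO1C1 (0.220) or without FTO2D4 (0.143). miR-127-3p, its partner, had 43.6 ± 24.8 against 44.3 ± 15.1 RPM.

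Several members lay just outside the threshold. miR-337-3p had 85.4 ± 23.5 against 138 ± 11.5 RPM (log2 0.73 ± 0.19, n = 3, edgeR adjusted p = 0.0520). miR-410-5p had 1325 ± 187 against 2008 ± 403 RPM (log2 0.59 ± 0.15, n = 3, edgeR adjusted p = 0.0521). miR-136-5p, the member with the largest log2 fold change of m6A against IgG, had 94.6, 75.9 and 77.3 RPM against 132.5, 153 and 119 RPM (log2 0.71 ± 0.19, edgeR adjusted p = 0.0532). Its groups did not overlap, although it was not called. The 2 most abundant members were not called: miR-1185-1-3p had 4507 ± 2739 against 4776 ± 919 RPM (log2 0.24 ± 0.27) and miR-370-3p 1652 ± 113 against 1713 ± 127.1 RPM (log2 0.05 ± 0.13). Counting the 3 called ones, 42 of the 82 members (51.2%) were higher in all 3 clones, against 44% of all miRNAs, and 1 was lower in all 3 (5.18% of all), miR-299-3p, named after its values were seen. By the study's rule, which asks for a mean ratio over 2 and 15 RPM or more in each FTO siRNA library, miR-493-5p and miR-127-5p were increased (2.35% of the members, 1.45% of all miRNAs), and 0 were decreased (0.165% of all). Without FTO1C1 or without FTO2D4 the rule gave 4 increased members, and 1 if all 3 ratios had to exceed 2. The shares of all miRNAs under these changes to the rule were not counted.

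**Figure D3:**
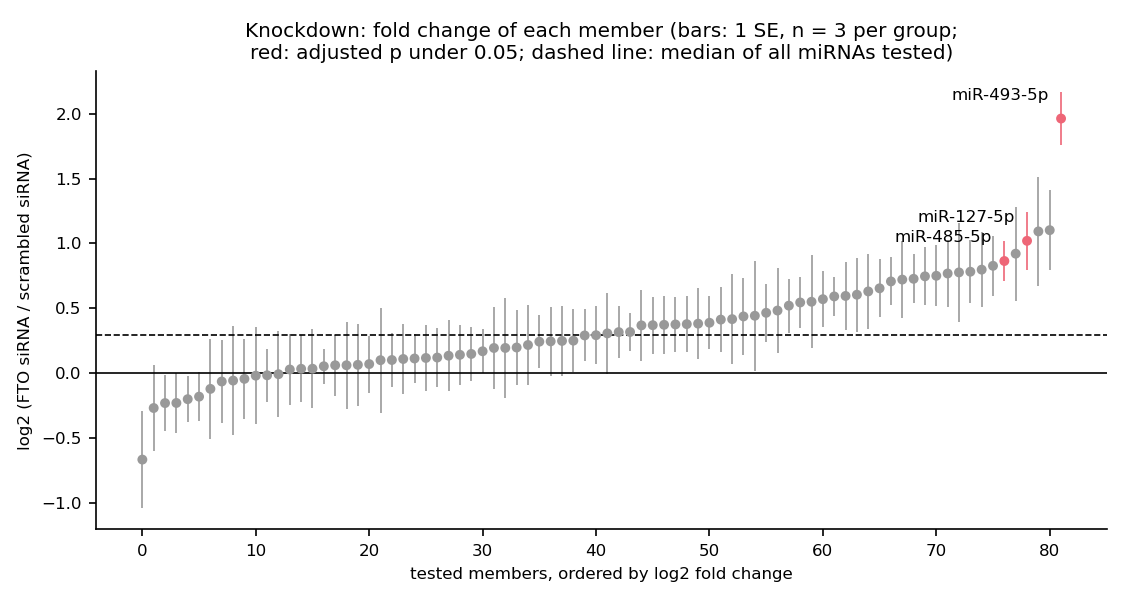
Log2 fold change of FTO siRNA against scrambled siRNA for each of the 82 tested members, in rising order, with bars of 1 SE (n = 3 per group). Red marks the 3 members with an adjusted p under 0.05; the cloud of grey points lies about the dashed line, the median of all 2374 miRNAs at 0.29, and miR-493-5p stands alone at 1.96.

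In the immunoprecipitation, the members split into some that were far higher with the m6A antibody than with IgG and many that were not. Of 73 tested members, 25 were higher in m6A and 2 lower (edgeR, adjusted p under 0.05), where 39.8% of all 2054 miRNAs were called, 38.6% higher and 1.27% lower. The median log2 fold change was 0.62 for the members and 0.83 for all. The balance depended on the scale. TMM factors bring the median of all miRNAs to 0.06, and with them 21 members were higher and 13 lower. With totals without miR-6080, 20 were higher and 10 lower. Of all miRNAs, 755 were called with TMM factors and 706 with totals without miR-6080. At an unadjusted edgeR p under 0.05, TMM factors gave 22 members higher and 18 lower, where 26.6% of all were higher and 20.4% lower. Totals without miR-6080 gave 22 and 15 members, where 28.04% of all were higher and 19.7% lower. The 25 members called higher came from every stretch of the locus except miR-770: 2 of 5 in the upstream group, 3 of 10 antisense to RTL1, both miR-370 arms and 18 of the 55 tested in the distal group.

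miR-136-5p, antisense to RTL1, showed the largest difference. It had 1228, 4690 and 26423 reads in the m6A libraries of FTO1C1, FTO2D4 and FTO3C3, but 13, 16 and 2 reads in IgG. In RPM this was 2156, 3441 and 5313 in m6A, 17.5, 20.3 and 10.7 in IgG and 109, 135.6 and 72.0 in the input. The log2 fold change against IgG was 7.51 ± 0.42 (SE, n = 3, edgeR adjusted p = 3.79e-06) and it lay between 6.73 and 7.87 under all alternatives. miR-136-3p, from the same hairpin, had 59.7 to 67.5 RPM in m6A and 60.7 to 161 RPM in IgG and was not called (log2 -0.65 ± 0.36, edgeR adjusted p = 0.187). The 2 strands of this hairpin thus differed in how they were distributed between the antibodies.

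miR-485-5p was next, with 2018, 2840 and 2981 RPM in m6A against 20.2, 33.0 and 42.9 RPM in IgG. Its log2 fold change was 6.41 ± 0.33 (SE, n = 3, edgeR adjusted p = 3.66e-06). Its other arm, miR-485-3p, had 16.4 ± 1.39 RPM in m6A and 18.1 ± 3.14 RPM in IgG. miR-377-3p, which had 13.3 to 18.5 RPM in the input, had 241, 284 and 328.96 RPM in m6A and 4.05, 10.2 and 5.36 RPM in IgG (log2 5.34 ± 0.43, edgeR adjusted p = 2.26e-05). miR-539-3p had 119, 137 and 277 RPM against 5.39, 7.63 and 5.36 RPM (log2 4.55 ± 0.44, edgeR adjusted p = 6.76e-05). For these 3 members the groups lay well over 10-fold apart in every clone. IgG held few reads of miR-377-3p (3, 8 and 1 in FTO1C1, FTO2D4 and FTO3C3) and of miR-539-3p (4, 6 and 1). miR-337-3p had 52.7, 50.6 and 97.5 RPM against 4.05, 3.81 and 0 RPM, where the count of 0 is the shallow FTO3C3 library (log2 4.06 ± 0.56, edgeR adjusted p = 0.000555). miR-431-5p, also antisense to RTL1, had 230, 285 and 326 RPM against 29.7, 15.3 and 26.8 RPM.

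The abundant miR-1185-1-3p had 1830, 9866 and 3377 RPM in m6A against 527, 507 and 322 RPM in IgG. It was higher in every clone, but FTO2D4 stood apart from the others. A different case was miR-431-3p, with 739 RPM in the m6A library of FTO1C1 and 41.1 and 36.8 RPM in those of FTO2D4 and FTO3C3, against 43.2 to 59.0 RPM in IgG; it was not called, and its mean in m6A rests on FTO1C1.

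Only miR-432-5p and miR-495-3p were called lower in m6A than in IgG. miR-432-5p had 128, 236 and 170 RPM in m6A and 258, 313 and 853 RPM in IgG (log2 -1.24 ± 0.39, n = 3, edgeR adjusted p = 0.0325). miR-495-3p had 616, 442 and 550 RPM in m6A and 804, 1073 and 1126 RPM in IgG (log2 -0.90 ± 0.28, n = 3, edgeR adjusted p = 0.0300). For both, the groups did not overlap, but neither was called without FTO2D4 or without FTO3C3, with adjusted p between 0.0639 and 0.201. Their input levels were 6.39 ± 1.31 and 21.0 ± 8.999 RPM, so they took a far larger share of the miRNA reads in both precipitates than in the input. RPM gives shares of a library and not amounts of RNA.

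**Figure D4:**
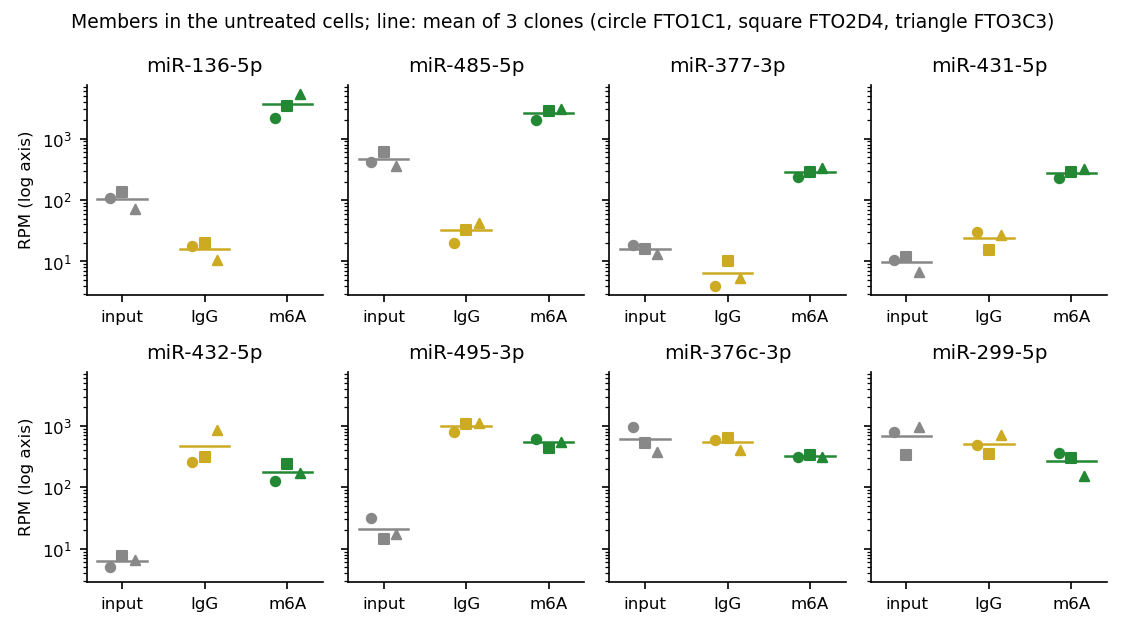
RPM (log axis) of 8 members in the input, IgG and m6A libraries of the untreated cells, 1 point per clone and a line at the mean of 3. miR-136-5p, miR-485-5p, miR-377-3p and miR-431-5p lie highest in m6A, miR-432-5p and miR-495-3p lie above the input with both antibodies, and miR-376c-3p and miR-299-5p lie above 100 RPM in all 9 libraries.

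By the study's rule for enriched miRNAs, at least 100 RPM in all 3 m6A libraries and a mean ratio to IgG of at least 2, 12 members passed (15.8%, against 11.8% of all miRNAs): miR-1185-1-3p, miR-1197, miR-136-5p, miR-370-3p, miR-377-3p, miR-381-5p, miR-409-5p, miR-410-5p, miR-431-5p, miR-485-5p, miR-539-3p and miR-541-3p. The level limit decided this count. At least 100 RPM in all 3 m6A libraries was reached by 17 members (22.4%, against 20.3% of all miRNAs). A limit of 15 RPM gave 29 enriched members, and the share of all miRNAs at that limit was not counted. miR-493-5p, the member that rose most after the knockdown, was not among them: it had 47.4, 145 and 73.0 RPM in m6A and 27.0, 30.5 and 64.4 RPM in IgG (log2 1.14 ± 0.45, n = 3, edgeR adjusted p = 0.0754).

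Against the input, the same m6A libraries ranked the members differently. Of 75 tested members, 48 were higher in m6A and 9 lower, where 77.3% of all 2174 miRNAs were called, 66.8% higher and 10.5% lower. The medians were 1.46 for the members and 1.65 for all, and with TMM factors, which bring the median of all to 0.10, 18 members were higher and 25 lower. With totals without miR-6080, 52 were higher and 2 lower, and without FTO1C1 47 and 4. Of all miRNAs, 1189 were called with TMM factors, 1746 with totals without miR-6080 and 1618 without FTO1C1. At an unadjusted edgeR p under 0.05, TMM factors gave 20 members higher and 25 lower, where 30.1% of all were higher and 30.0% lower. Totals without miR-6080 gave 52 and 2 members, where 73.9% of all were higher and 6.92% lower. miR-136-5p was highest here too, at log2 5.04 ± 0.51 (n = 3, edgeR adjusted p = 2.68e-09). It was followed by miR-431-5p (4.86 ± 0.48), miR-432-5p (4.77 ± 0.48), miR-495-3p (4.73 ± 0.46) and miR-377-3p (4.16 ± 0.45). miR-539-3p, over 10-fold above IgG, had 178 ± 86.1 RPM in m6A and 174 ± 32.9 RPM in the input (log2 -0.05 ± 0.42). miR-380-3p was the lowest, with 33.4, 51.4 and 40.6 RPM in m6A against 170, 282 and 155 RPM in the input (log2 -2.24 ± 0.41, n = 3, edgeR adjusted p = 2.05e-05). miR-544a, miR-299-5p, miR-370-5p and miR-487a-5p were also lower, by 1.18 to 1.31 on the log2 scale, and these 4 did not pass with totals without miR-6080 (adjusted p between 0.0799 and 0.180). miR-299-5p also failed without FTO3C3 (0.174), miR-370-5p without FTO1C1 (0.0525) and miR-487a-5p without FTO1C1 (0.0612) or FTO2D4 (0.0768). miR-370-3p was lower than the input (486 ± 51.6 against 1048 ± 30.6 RPM, log2 -1.11 ± 0.39, edgeR adjusted p = 0.0110), although it counted as enriched over IgG.

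Some members were higher and others lower in the IgG control than in the input. Of 70 tested members, 27 were higher in IgG than in the input and 15 lower, where 58.6% of all 1941 miRNAs were called, 36.8% higher and 21.8% lower. With TMM factors 16 were higher and 22 lower, and with totals without miR-6080, 42 and 9. Without FTO1C1 25 were called, 16 higher and 9 lower. Of all miRNAs, 1145 were called with TMM factors, 1504 with totals without miR-6080 and 840 without FTO1C1. At an unadjusted edgeR p under 0.05, TMM factors gave 17 members higher and 24 lower, where 30.96% of all were higher and 32.4% lower. Totals without miR-6080 gave 44 and 9 members, where 63.9% of all were higher and 14.03% lower. Leaving out FTO1C1 gave 20 and 10 members, where 30.6% of all were higher and 18.5% lower. miR-432-5p had 258, 313 and 853 RPM in IgG against 4.97, 7.54 and 6.67 RPM in the input (log2 6.01 ± 0.54, n = 3, edgeR adjusted p = 5.77e-27). miR-495-3p had 804, 1073 and 1126 RPM against 31.2, 14.4 and 17.3 RPM (log2 5.61 ± 0.49, n = 3, edgeR adjusted p = 6.13e-28). miR-136-3p (3.33 ± 0.54), miR-411-5p (3.23 ± 0.52) and miR-668-5p (3.03 ± 0.54) were next, and each of them had a mean in the input under 13 RPM. At the other end, miR-380-3p had 170, 282 and 155 RPM in the input and 1.35, 5.08 and 0 RPM in IgG (log2 -6.28 ± 0.68, n = 3, edgeR adjusted p = 1.20e-18). miR-539-3p (-4.81 ± 0.61), miR-376a-2-5p (-3.98 ± 0.60), miR-485-5p (-3.94 ± 0.49) and miR-370-3p (-3.27 ± 0.44) were lower as well. The 3 comparisons share libraries, 3 m6A, 3 IgG and 3 input, so that a low IgG value raises one and lowers another. For miR-485-5p the same 3 groups read 2613 ± 520 RPM in m6A, 32.1 ± 11.4 in IgG and 459 ± 126 in the input, and for miR-380-3p 41.8 ± 9.06, 2.14 ± 2.63 and 202 ± 69.0. miR-380-3p was therefore above IgG and below the input in the m6A libraries.

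**Figure D5:**
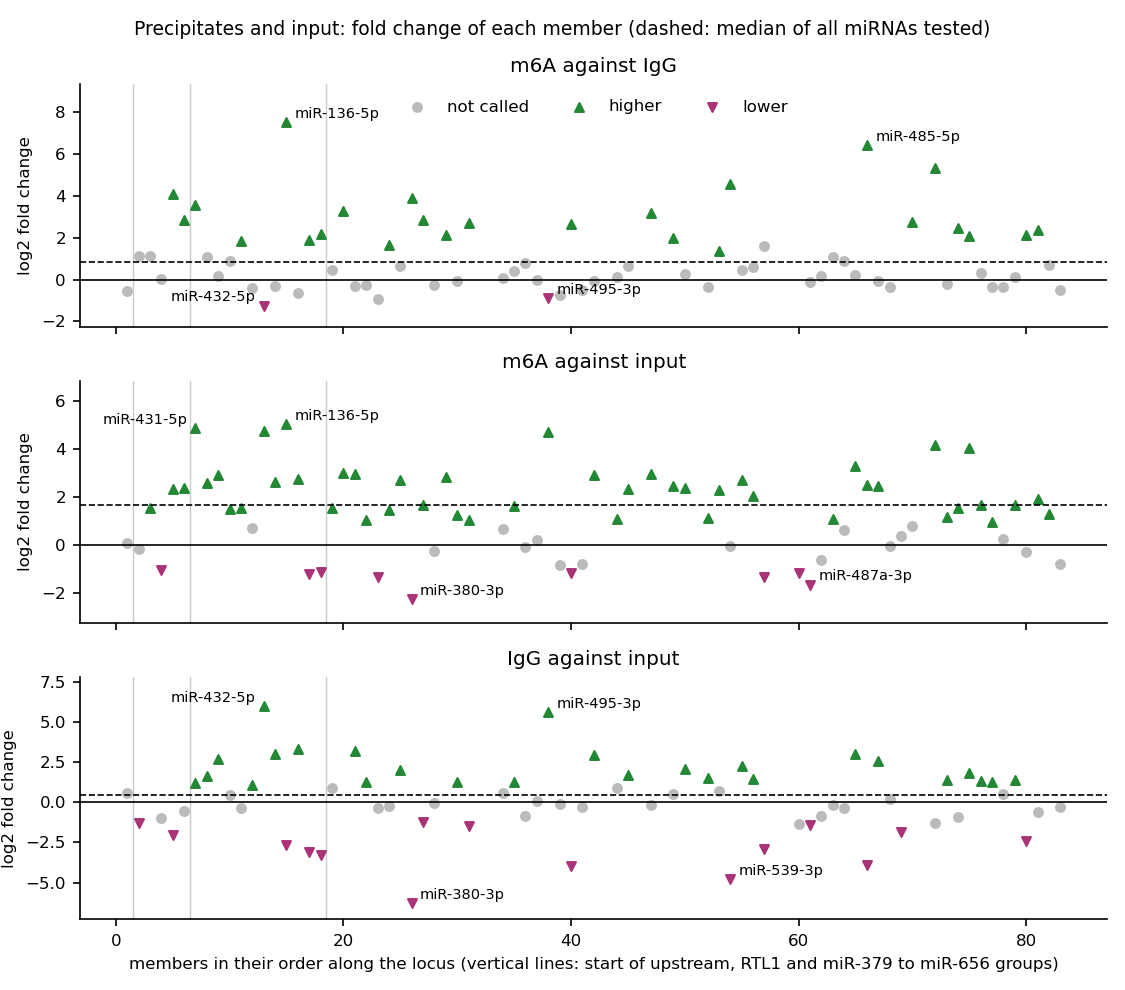
Log2 fold change of each tested member with a RefSeq position on chromosome 14, in its order along the locus, for m6A against IgG, m6A against input and IgG against input; triangles mark members with an adjusted p under 0.05 and the dashed line is the median of all miRNAs tested. miR-136-5p stands highest in the first 2 panels, and miR-432-5p and miR-495-3p in the third.

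The groups along the locus held different levels. The 10 members antisense to RTL1 summed to 232 ± 31.9 RPM with scrambled siRNA, 218 ± 61.5 RPM in the input, 877 ± 418 RPM in IgG and 4647 ± 1368 RPM in m6A, where miR-136-5p was the largest part. The 2 miR-370 arms summed to 1721 ± 119, 1143 ± 47.7, 120 ± 9.90 and 527 ± 60.2 RPM in the same order. The distal group summed to 9277 ± 2721 RPM with scrambled siRNA, 4538 ± 453 in the input, 4378 ± 289 in IgG and 12458 ± 4256 RPM in m6A. miR-770-5p, within MEG3, stayed between 5.62 ± 1.54 RPM with scrambled siRNA and 57.8 ± 15.2 RPM in IgG.

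Near-identical members could not be told apart equally well, since a read matching several miRNAs was given to the one with most matching bases. For 12 of the 84 members with a sequence, the closest listed miRNA differed by at most 3 edits. The closest pair was miR-1185-1-3p and miR-1185-2-3p, whose sequences above share the seed UAUACAG and differ by U20C, counted from the 5′ end of the first. Their levels with scrambled siRNA were nonetheless 4507 and 3.48 RPM, so this pair was not split evenly by the counting. Members with one seed also differed in the precipitates:
miR-539-3p: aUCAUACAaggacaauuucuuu
miR-485-3p: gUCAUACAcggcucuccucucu
These 2 share all of bases 2 to 8, and their log2 fold changes of m6A against IgG were 4.55 ± 0.44 and -0.08 ± 0.44. In all, 8 seeds were shared by 2 or 3 members each, 17 members together, and the members held 75 distinct seeds.
miR-376c-3p: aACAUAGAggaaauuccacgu
miR-376a-3p: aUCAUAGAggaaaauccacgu
This pair of the distal group, both among the 6 that were high in the input, differs by A2U and U14A, the first of them within the seed, and miR-376a-3p is encoded by more than 1 hairpin. Values of either may hold reads of the other.

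The short motif in which m6A is usually found in mRNA was searched in the mature strands as printed, on that strand alone. GAC or AAC was present in 36 of the 84 members (42.9%) and in 36.1% of the 2370 mature miRNA names of RefSeq. It was present in 11 of the 25 members that were higher in m6A than in IgG (44.0%), in 20 of the 47 that were tested, had a sequence and were not higher (42.6%), and in 7 of the 12 enriched by the study's rule (58.3%). The longer GGAC, which contains GAC, was present in 3 of 25, 3 of 47 and 3 of 12, and in 8.90% of all. miR-136-5p and miR-485-5p, with the largest differences, hold neither, as their sequences above show, while miR-377-3p holds AAC and miR-539-3p GGAC. A match is a string of letters and not a methylated site.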

How the data were processed

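Small RNA libraries of 3 HEK293-derived clones were analysed in 5 groups of 3. The authors trimmed the reads with cutadapt and matched them to miRBase release 20 by maximal exact matches, with entries of identical sequence collapsed and no genome alignment. The values are the deposited counts of reads per mature miRNA, per the labels and the Methods without normalization. No listed miRNA had a total under 22 reads over the knockdown libraries or under 82 over the immunoprecipitation libraries.

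Counts were scaled to RPM by each library's total of miRNA reads. Each comparison was fitted across all miRNAs with edgeR 4.0.16 (R 4.3.3; glmQLFit, glmQLFTest, filterByExpr with minimum count 10, library sizes equal to the totals, clone as block), with Benjamini-Hochberg adjustment at 0.05; SE is the log2 fold change divided by the root of F. DESeq2 1.42.0 was an alternative, beside TMM factors, other filters and limits, no block, totals without miR-6080 or miR-10a-5p, and each clone left out. In ratios, 3 reads stood for an IgG count of 0. The clone pairs the libraries, since those sharing a name share a clone. The deviations of paired libraries correlated at 0.121 to 0.189 in the knockdown, 0.0117 to 0.0370 for m6A with IgG, -0.0711 to -0.0284 for m6A with input and -0.0273 to 0.0661 for IgG with input. Libraries of one group differed by a chi-square per degree of freedom of 5.22 to 139, so none was counted as a copy.

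Named members were, in each comparison, the 5 largest changes in each direction with adjusted p under 0.05 and one direction in all 3 clones; the 10 most abundant with scrambled siRNA and in the input; miR-136-5p and miR-493-5p; and the other arms. Others are named by their place in a count or rule. The members and lists were chosen with earlier results of these data known. Sequences and positions are from RefSeq (GRCh38.p14).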

Additional observations from a re-analysis of the deposited data

How the results depend on the processing

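The 30 log2 fold changes of named members were recomputed under 263 alternatives in all; 244 kept their direction and their side of the threshold, 19 kept the direction and did not pass, and 0 reversed. In the knockdown, the count of called members was 3, and it was 1 with TMM factors, 1 with DESeq2, which gave 66 members no adjusted p, 7 with a minimum count of 50, and 0 to 8 with a clone left out (0 without FTO1C1, where 0 of all miRNAs were called). For m6A against IgG the count of 27 became 16 with a minimum count of 50 and 20 to 30 with a clone left out, and for m6A against input 57 became 37 and 45 to 51. For IgG against input 42 became 21 with a minimum count of 50 and 25 to 38 with a clone left out (25 without FTO1C1). A minimum count of 50 leaves fewer members to test. Without the replicate block, 3, 29, 58 and 43 members were called in the 4 comparisons, which changed no count by over 1.5 times. Members at the RPM limit in all 3 scrambled siRNA libraries numbered 55 at 5 RPM and 13 at 50 RPM, and 23 to 29 with a clone left out. Increased members by the ratio rule numbered 1 when all 3 ratios had to exceed 2, 12 at a ratio of 1.5, and 3 to 4 with a clone left out. Enriched members numbered 29 at 15 RPM and 12 to 13 with a clone left out. For these changed RPM limits and ratio rules, the shares of all miRNAs were not counted, so the member counts cannot be set against the whole table. Without miR-10a-5p in the totals, the cluster took 1.56% of reads with scrambled siRNA and 1.90% with FTO siRNA; without miR-6080 it took 0.812% in the input, 3.22% in m6A and 1.60% in IgG, so its ratio of m6A to IgG depends on this miRNA. Depth limits the IgG values most, since 1 read of FTO3C3 is 5.36 RPM.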
